A study of Mus musculus with 23 samples.

Results

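The response of myeloid progenitors to 12 h of RUNX1-ETO expression was measured on 6 of the 23 arrays of the series, chosen by their titles: 3 arrays of uninduced cells and 3 arrays of cells that had received doxycycline (Dox). The cells came from A2lox, a mouse embryonic stem (ES) cell line, given by its labels as C57BL/6, that carries an HA-tagged human RUNX1-ETO gene under a tetracycline-responsive promoter and keeps its own RUNX1 genes. All 6 arrays, the uninduced ones included, therefore held cells with the transgene, and no array held cells given Dox without it, so effects of Dox itself and of RUNX1-ETO cannot be told apart here. The targeted ES cells were picked as individual colonies, so the line may stem from 1 clone. KIT+CD41+ progenitors from a blast culture, in which ES cell-derived Flk1+ cells form blood cells by way of haemogenic endothelium (HE), were seeded in expansion medium with stem cell factor, Flt3 ligand and thrombopoietin. Dox at 0.1 μg per ml was added to the induced cultures at the same time. The comparison asked which genes RUNX1-ETO changed in cells that had already left the endothelium. All genes on the array were compared.

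RUNX1-ETO is the fusion protein of t(8;21) acute myeloid leukaemia. It joins the DNA-binding domain of RUNX1, a transcription factor needed for the endothelial-to-haematopoietic transition and for blood cell differentiation, to nearly the whole of ETO (RUNX1T1), which binds corepressors and histone deacetylases. The fusion protein binds RUNX sites together with partners such as ERG, FLI1 and the E proteins, and the leukaemic cells it marks are arrested as immature myeloid cells.

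Values are log2 intensities after background correction and quantile normalization over all 23 arrays, with 1 probe for each gene, so levels of different genes were not compared. On the 6 arrays between 51.2% and 65.0% of spots were well above background, and no spot was saturated. All 6 arrays lay on 1 slide and were scanned on 1 day. Correlations over all tested genes were 0.990 to 0.993 within the groups and 0.965 to 0.981 between them. The titles call the arrays biological replicates, but a second label calls induced array 3 a technical replicate, so the p-values may in part measure technical spread.

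The label of the culture was checked against cell type markers. Of 31 tested monocyte and macrophage genes, 23 were higher in the uninduced myeloid progenitors than in uninduced HE, HE2 (CD41+ cells that still express Tie2) or CD41+KIT+Tie2− progenitors, where 31.6% of all tested genes had their highest level. Csf1r, the receptor of macrophage colony-stimulating factor, lay at 14.07 and Tyrobp, a signalling adaptor of myeloid cells, at 15.27. The neutrophil list did not stand out as clearly. Of its 17 tested genes 7 (41.2%) were highest in this culture, and the mean level over the list was 8.86, against 9.13 in uninduced CD41+KIT+Tie2− progenitors. The culture was not myeloid alone by its transcripts. All 27 tested erythroid genes and 23 of 26 megakaryocyte and platelet genes were also highest in it, with Hba-a1, an alpha globin, at 18.15. All 26 interferon-stimulated genes, 16 of 18 antigen presentation genes and 9 of 14 housekeeping genes were highest there too. The uninduced arrays of the other stages used here lay on other slides, so slide and stage cannot be told apart in these levels. S100a8, S100a9, Ngp and Flt3 were below the expression filter of 6.5. Whether fewer cells of a type or less RNA per cell lay behind any difference cannot be told apart in these bulk samples.

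The mouse counterparts of the parts of the fusion, Runx1t1 and Runx1, were examined first. The mouse Runx1t1 probe gave 9.28, 10.22 and 10.52 on uninduced arrays 1, 2 and 3, and 11.93, 12.13 and 12.12 on induced arrays 1, 2 and 3. The induced values were all higher, by 2.06 ± 0.33 (log2 change ± SE, limma adjusted P = 0.000307), or 4.16-fold. Whether this probe reads the human transgene was not tested. Runx1 itself lay at 12.70, 12.18 and 12.59 without Dox and at 12.41, 12.64 and 11.84 with it, and these ranges overlapped (change of −0.19 ± 0.36, adjusted P = 0.842). Its other probe gave a change of the opposite sign, 0.04. Of the other family members, Cbfb, the partner subunit of RUNX proteins, had a change of 0.26 and Cbfa2t3 one of −0.52, and neither passed the test.

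More genes rose than fell with induction. Of 15202 genes tested, 960 (6.31%) were called, 780 as upregulated (5.13%) and 180 as downregulated (1.18%), with P no larger than 0.001 and a 2-fold or larger change, the thresholds used throughout (limma, adjusted P of at most 0.012 for every call). The median change was 1.65 among the upregulated genes, −1.31 among the downregulated genes and −0.02 over all genes. Large changes were on the upper side, with 243 genes raised more than 4-fold against 10 lowered as much, and 61 raised more than 8-fold against none lowered as much. The 3 induced arrays lay outside the range of the 3 uninduced arrays for 779 of the 780 and for all 180. Over all tested genes such separation was common, at 23.9% upwards and 22.7% downwards, 46.6% in all. Without induced array 1 the downregulated genes numbered 116.

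**Figure D1:**
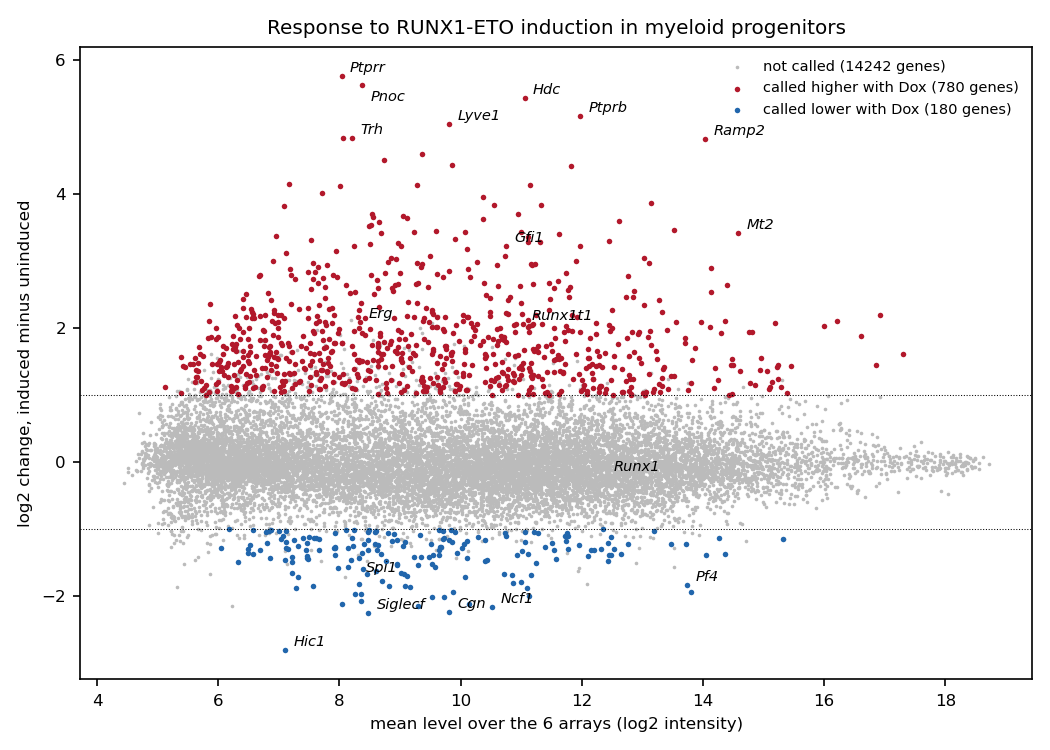
Change with Dox in log2 units (y axis) against mean log2 intensity (x axis) for each of the 15202 genes tested, with 780 upregulated and 180 downregulated genes in colour. Upregulated genes reach changes above 5, while the largest fall is 2.81.

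Both of the largest rises were in genes that were not detected above background in the uninduced culture. Ptprr, a receptor tyrosine phosphatase that acts on MAP kinases, gave 4.98, 5.27 and 5.22 on the uninduced arrays and 11.46, 10.58 and 10.71 on the induced arrays. It was not well above background on any uninduced array, so its rise was at least 54.2-fold (fitted change 5.76 ± 0.26, adjusted P = 2.26e-10). Such a bound sets the induced mean against, for each uninduced array, the higher of its dimmest detected signal and the probe's own signal. Pnoc, the precursor of the neuropeptide nociceptin, went from 5.26, 5.63 and 5.78, also below background, to 11.27, 11.20 and 11.09, at least 49.5-fold higher (adjusted P = 4.83e-10). Hdc, the histidine decarboxylase that makes histamine, went from 8.92, 8.12 and 7.99 to 14.94, 13.26 and 13.11, which was 43.0-fold (5.43 ± 0.43, adjusted P = 1.44e-07). All 3 genes separated the groups by more than 4 log2 units, and induced array 1 was the highest of its group for each of them.

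The rest of the 12 largest rises lay between 4.15 and 5.15. They included Ptprb, the vascular endothelial tyrosine phosphatase, with 8.70, 9.996 and 9.47 uninduced against 14.78, 14.43 and 14.42 induced. Lyve1, the hyaluronan receptor of lymphatic and embryonic endothelium, had 6.68, 7.90 and 7.29 against 12.59, 12.30 and 12.11. Ramp2, the subunit that makes the calcitonin receptor-like receptor respond to adrenomedullin, had 11.12, 12.20 and 11.58 against 16.65, 16.51 and 16.17. In these 3 endothelial genes uninduced array 2 was the highest of its group and still lay more than 3 below every induced array. Has2, which makes hyaluronan, rose by 4.60 ± 0.28 and Gad2, a glutamate decarboxylase, by 4.43 ± 0.17. Gad2 had the smallest adjusted P among the named genes, 2.61e-11. The peptide hormone genes Trh and Cck both rose by 4.83, each being well above background on 1 of the 3 uninduced arrays. Tal2, a basic helix-loop-helix factor related to Tal1, was at least 17.8-fold higher, from a level not above background. Smtnl1 rose by 4.50.

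The largest falls were smaller and more alike. Hic1, a zinc finger transcriptional repressor, went from 7.64, 8.69 and 9.20 to 5.22, 6.17 and 5.71 (−2.81 ± 0.29, adjusted P = 2.53e-06). It was well above background on 1 of the 3 induced arrays, which leaves the size of the fall uncertain. Siglecf, a sialic acid-binding receptor of eosinophils and some macrophages, went from 10.12, 9.24 and 9.45 to 7.27, 7.24 and 7.54 (−2.25 ± 0.30, adjusted P = 4.64e-05). Cgn, which encodes the tight junction protein cingulin, went from 10.81, 10.75 and 11.20 to 8.28, 9.17 and 8.59 (−2.24 ± 0.36, adjusted P = 0.000242). The other falls named by the same rule had changes between −2.16 and −1.96. Ncf1, a subunit of the phagocyte NADPH oxidase, Gzmb, the protease granzyme B, and Pstpip1, a cytoskeletal adaptor of leukocytes, were among them, together with Zbtb16, Muc13, Adgrg5, Tmem273 and Usp51. The call of Pstpip1 was lost when any 1 of the 6 arrays was left out (changes of −2.069 to −1.773, adjusted P of 0.0211 to 0.0496).

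**Figure D2:**
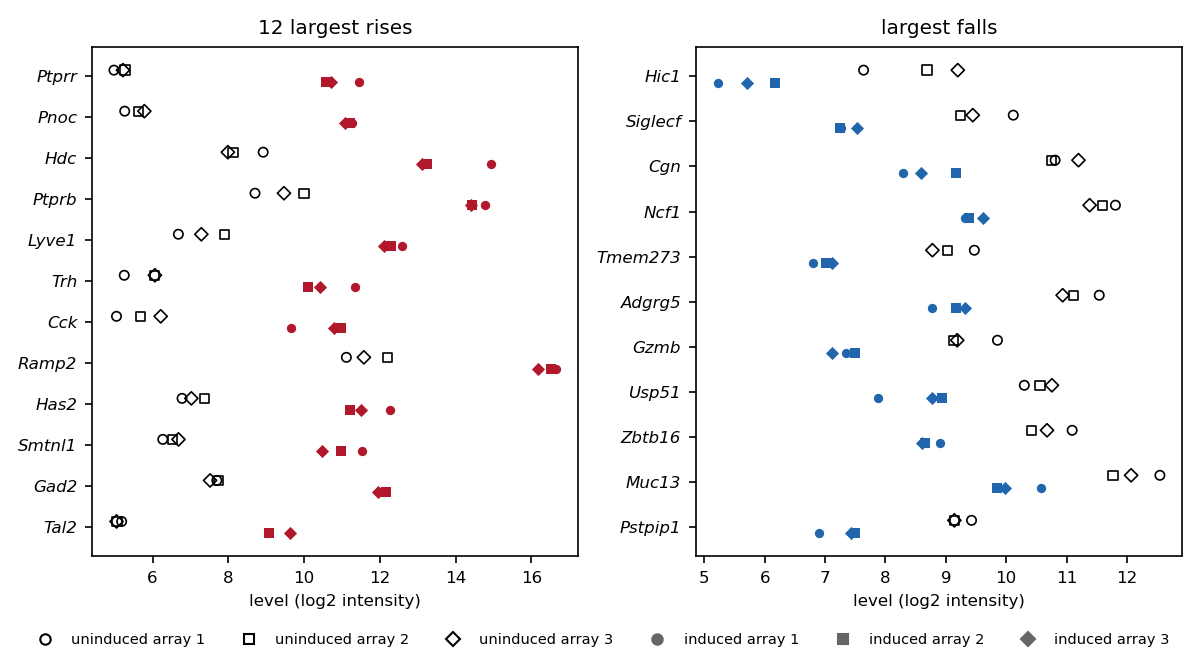
Log2 intensity (x axis) of the 12 genes with the largest rises and of the genes named among the largest falls (y axes), each point being 1 array, open for the 3 uninduced and filled for the 3 induced arrays, with the shape giving the array number. The 2 groups of arrays do not overlap for any of these genes, because the rule that chose them required it. Ptprr and Pnoc go from about 5 to about 11, and Hic1 lies below 6.5 on each induced array.

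The promoters of the genes at both ends are shown because RUNX1-ETO acts through the DNA-binding domain of RUNX1. RefSeq holds, for GRCm38.p6, windows of 250 bases before to 50 bases after the start for Ptprr (chr10:116018113-116018412, plus strand), Hdc (chr2:126618629-126618928, minus strand), Erg (chr16:95586544-95586843, minus strand), Cebpa (chr7:35119043-35119342, plus strand), Hic1 (chr11:75170206-75170505, minus strand), Siglecf (chr7:43351091-43351390, plus strand) and Cgn (chr3:94786433-94786732, minus strand). Pnoc and Spi1, chosen by the same rule, are named only. Capitals mark matches, on either strand, to the RUNX motif TGTGGT or TGCGGT, the ETS motif GAGGAA or the AP-1 motif TGANTCA.
Ptprr: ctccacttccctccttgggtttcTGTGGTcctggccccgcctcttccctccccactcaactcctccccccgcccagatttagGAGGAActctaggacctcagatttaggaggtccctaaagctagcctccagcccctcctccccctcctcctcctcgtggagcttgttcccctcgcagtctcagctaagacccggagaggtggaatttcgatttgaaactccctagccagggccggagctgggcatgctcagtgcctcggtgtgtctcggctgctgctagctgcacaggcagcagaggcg
Hdc: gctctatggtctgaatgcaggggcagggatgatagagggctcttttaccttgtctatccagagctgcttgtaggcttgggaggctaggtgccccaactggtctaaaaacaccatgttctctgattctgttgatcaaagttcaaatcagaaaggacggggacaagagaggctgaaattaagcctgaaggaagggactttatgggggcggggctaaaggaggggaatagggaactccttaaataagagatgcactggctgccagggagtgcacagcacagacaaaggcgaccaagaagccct
Erg: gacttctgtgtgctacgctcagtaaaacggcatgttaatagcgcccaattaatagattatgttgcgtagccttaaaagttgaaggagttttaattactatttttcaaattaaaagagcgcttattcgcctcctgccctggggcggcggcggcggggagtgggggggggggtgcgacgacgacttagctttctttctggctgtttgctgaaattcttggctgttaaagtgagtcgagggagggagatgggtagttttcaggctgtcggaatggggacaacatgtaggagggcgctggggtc
Cebpa: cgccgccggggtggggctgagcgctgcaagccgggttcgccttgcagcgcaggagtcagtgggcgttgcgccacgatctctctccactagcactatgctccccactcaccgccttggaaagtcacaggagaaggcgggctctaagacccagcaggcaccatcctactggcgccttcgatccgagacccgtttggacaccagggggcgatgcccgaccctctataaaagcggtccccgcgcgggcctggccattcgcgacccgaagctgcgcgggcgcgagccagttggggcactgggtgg
Hic1: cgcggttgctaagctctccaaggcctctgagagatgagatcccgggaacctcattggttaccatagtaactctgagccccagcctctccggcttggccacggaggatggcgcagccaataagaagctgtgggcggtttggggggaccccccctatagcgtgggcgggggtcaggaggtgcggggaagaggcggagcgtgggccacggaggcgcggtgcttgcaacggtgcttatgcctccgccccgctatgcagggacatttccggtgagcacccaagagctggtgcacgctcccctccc
Siglecf: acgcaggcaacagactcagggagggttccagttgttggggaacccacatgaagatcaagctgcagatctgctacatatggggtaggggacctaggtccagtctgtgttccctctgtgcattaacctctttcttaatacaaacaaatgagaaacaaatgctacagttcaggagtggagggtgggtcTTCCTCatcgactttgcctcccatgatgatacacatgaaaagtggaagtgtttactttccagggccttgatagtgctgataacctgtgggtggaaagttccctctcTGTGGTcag
Cgn: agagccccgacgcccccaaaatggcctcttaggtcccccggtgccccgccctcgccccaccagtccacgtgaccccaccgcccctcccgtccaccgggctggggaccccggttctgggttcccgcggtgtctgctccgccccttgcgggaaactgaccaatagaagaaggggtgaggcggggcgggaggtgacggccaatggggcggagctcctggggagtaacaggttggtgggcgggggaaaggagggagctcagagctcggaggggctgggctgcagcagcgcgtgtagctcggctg

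Ptprr held a TGTGGT and a GAGGAA, and Siglecf held a GAGGAA on its other strand and a TGTGGT. No match lay in the other 5 windows. Across the array, 12066 of the 15202 tested genes had a window in RefSeq. A RUNX motif lay in 20.9% of these windows and in 22.5% of all 27025 windows of the table. The share was 19.4% for upregulated genes (113 of 582 with a window) and 37.2% for downregulated genes (55 of 148). TGTGGT alone was present in 11.3% of windows of upregulated genes, 27.0% of windows of downregulated genes and 13.1% of those of tested genes. For GAGGAA the shares were 25.9%, 29.1% and 27.1%, and for TGANTCA they were 8.25%, 8.11% and 5.61%, in the same order. These shares are a description of the windows and were not tested.

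Endothelial genes made up the group with the highest median change. Of 38 tested, 29 rose and none fell, with a median change of 2.20 against −0.02 over all genes. The list was written with earlier results of these data known. For this and each further list, the shares over all tested genes were 5.13% for rises and 1.18% for falls. Besides Ptprb, Lyve1 and Ramp2, the rises included the receptors Tek (3.07) and Kdr (2.24), the guidance receptor Robo4 (3.35), the scavenger receptor Stab1 (3.70), thrombomodulin Thbd (3.43), the tight junction gene Cldn5 (2.81) and the transcription factors Ets1 (2.68), Sox17 (2.75), Sox7 (1.83) and Sox18 (1.59). Cdh5, which encodes VE-cadherin, rose by 1.69 ± 0.26 (adjusted P = 0.00015). Pecam1 (0.72, adjusted P = 0.63), Tie1 (1.09, adjusted P = 0.28) and Cd34 (0.88, adjusted P = 0.0091) were not called, and Jam2 had the lowest value, −0.83.

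Averaged over these 38 genes, the level was 9.14 to 9.90 on the uninduced arrays and 11.55 to 11.87 on the induced arrays, against 12.41 to 13.02 in uninduced HE. Before induction 36 of the 38 were lower than in uninduced HE, and after induction 29 were still lower and 9 were higher. HE was hybridised on other slides, so slide and stage cannot be told apart in these levels. Uninduced array 2 had the highest mean level of the uninduced arrays. Leaving out 1 array at a time left 24 to 27 endothelial rises.

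**Figure D3:**
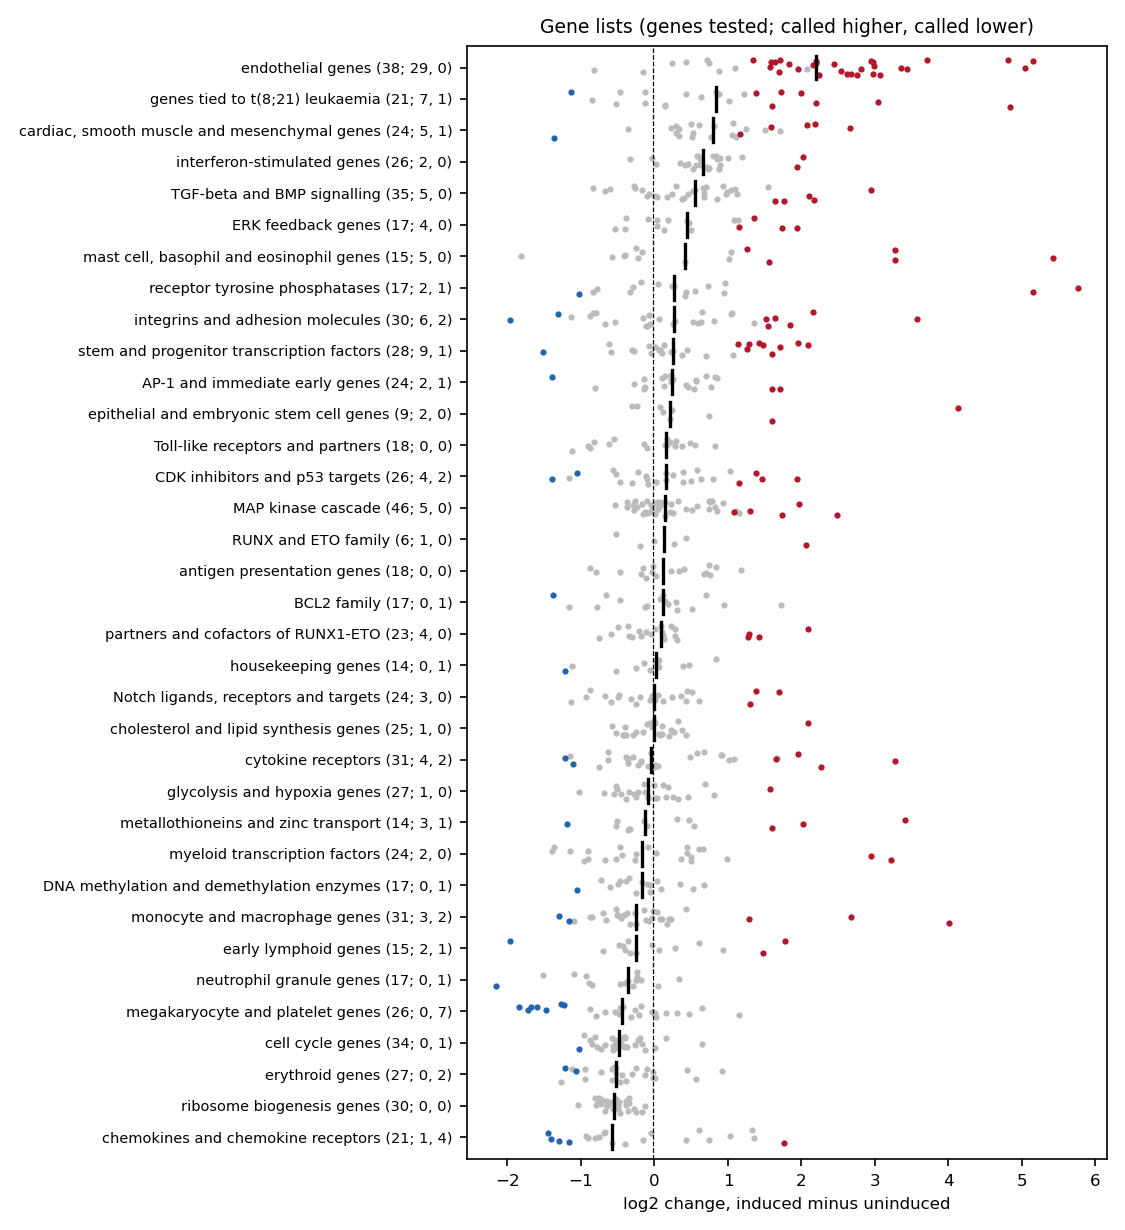
Log2 change with Dox (x axis) of each tested gene in each gene list (y axis, with the number tested, higher and lower), called genes in colour, the list median as a tick and the median of all genes as a dashed line. Endothelial genes have the highest list median, 2.20, and chemokine genes the lowest, −0.58.

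Other genes of vessel wall and mesenchyme also rose. Among 24 cardiac, smooth muscle and mesenchymal genes 5 rose and 1 fell, with a median of 0.79. The rises were Hand2, a heart and vessel transcription factor (2.66), the troponin gene Tnnt2 (2.19), fibronectin Fn1 (2.07), the basement membrane collagen Col4a2 (1.58) and Gata6 (1.16), and the fall was the platelet-derived growth factor receptor Pdgfrb (−1.37). This count was 3 without uninduced array 1, one of the losses being Col4a2 (adjusted P = 0.0188). Of 35 genes of TGF-β and BMP signalling, 5 rose and none fell, with a median of 0.55. They were the endothelial coreceptor Eng (2.94) and its partner receptor Acvrl1 (2.16), the ligand Bmp4 (2.11), the transducer Smad1 (1.77) and Tgfbr3. Of 30 integrins and adhesion molecules 6 rose, led by Itga3 (3.57), and Itgax fell (−1.32). Of 9 epithelial and ES cell genes, Krt19, a keratin, rose from 6.88, 7.67 and 7.08 to 11.38, 11.29 and 11.35, and Klf2, also a shear-responsive factor of endothelium, rose by 1.61. The call of Klf2 was lost in 5 of the 6 fits without 1 array (adjusted P of 0.0319 to 0.0554). The receptor tyrosine phosphatases numbered 17, of which Ptprr and Ptprb rose and Ptprj fell (−1.03 ± 0.19). The call of Ptprj was lost in 3 of the 6 fits without 1 array, where changes of −0.987 to −0.948 fell just short of 2-fold (adjusted P of 0.00662 to 0.00833).

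Among transcription factors of stem and progenitor cells, 9 of 28 rose and 1 fell, with a median of 0.25. Erg, an ETS factor of stem cells and endothelium, went from 6.94, 7.51 and 7.46 to 9.29, 9.74 and 9.13 (2.08 ± 0.31, adjusted P = 0.000155). Fli1, its close relative, went from 12.92, 12.91 and 12.82 to 14.45, 13.92 and 14.15 (1.29 ± 0.19, adjusted P = 0.00015). The 2 groups of arrays did not overlap for either ETS factor. Zfp521 rose by 1.95 ± 0.22, Hhex by 1.42 ± 0.18, and Gata2, a factor of stem and mast cells, by 1.26 ± 0.29. Hlf rose at least 3.26-fold from a level not above background. Sox4 rose by 1.61 ± 0.41, but its call was lost without any 1 of the 6 arrays (changes of 1.505 to 1.659, adjusted P of 0.0294 to 0.051). Hoxb4 rose by 1.14, and Hoxa5, not above background without Dox, was at least 2.78-fold higher. Ikzf1, a zinc finger factor of lymphoid and myeloid differentiation, fell by 1.52 on the log2 scale (adjusted P = 0.000502), from 9.63, 9.70 and 9.80 to 8.04, 8.25 and 8.30. Meis1 had a change of 1.07 ± 0.31 that did not pass the P threshold (adjusted P = 0.0247). Tal1 (0.11), Lmo2 (0.13), Myb (0.01) and Gfi1b (0.08) were near 0. Of 23 partners and cofactors of RUNX1-ETO, Erg, Hhex, Fli1 and the E protein gene Tcf4 (1.28) rose and none fell.

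Spi1, Cebpb, Irf8 and Cebpa, factors of myeloid differentiation, were lower in value with Dox without passing the test. Spi1, which encodes PU.1, gave 9.29, 8.77 and 8.94 on the uninduced arrays and 7.53, 7.75 and 7.56 on the induced arrays. The groups did not overlap, but the change of −1.39 ± 0.37 missed the P threshold (adjusted P = 0.015). The call depended on the processing, since Spi1 passed when the 6 arrays were fitted alone (−1.39) and in the authors' deposited log2 values (−1.28). Cebpb had a change of −1.36 ± 0.43 (adjusted P = 0.0413), Irf8 one of −0.96 ± 0.25 (adjusted P = 0.0132) and Cebpa one of −0.52 ± 0.40 (adjusted P = 0.487). Cebpa went from 7.88, 7.99 and 7.83 to 7.37, 7.30 and 7.47. Its groups did not overlap, nor did those of Cebpb, as for 22.7% of all tested genes downwards. The SE and P draw on the spread in all 8 groups of arrays. For Cebpa the SD was 0.082 uninduced and 0.085 induced here, against 1.15 in induced HE2. Cebpb passed when the 6 arrays were fitted alone, and Irf8 passed without uninduced array 3 (adjusted P = 0.00647). Over the 24 myeloid transcription factors, 2 rose and none fell, and the median was −0.17. Both rises were of repressors. Gfi1 went from 8.57, 9.57 and 9.29 to 13.47, 11.80 and 11.83 (3.22 ± 0.41, adjusted P = 2.36e-05), and Nfil3 from 9.43, 10.03 and 9.78 to 12.49, 12.77 and 12.85 (2.95 ± 0.27, adjusted P = 5.99e-07).

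**Figure D4:**
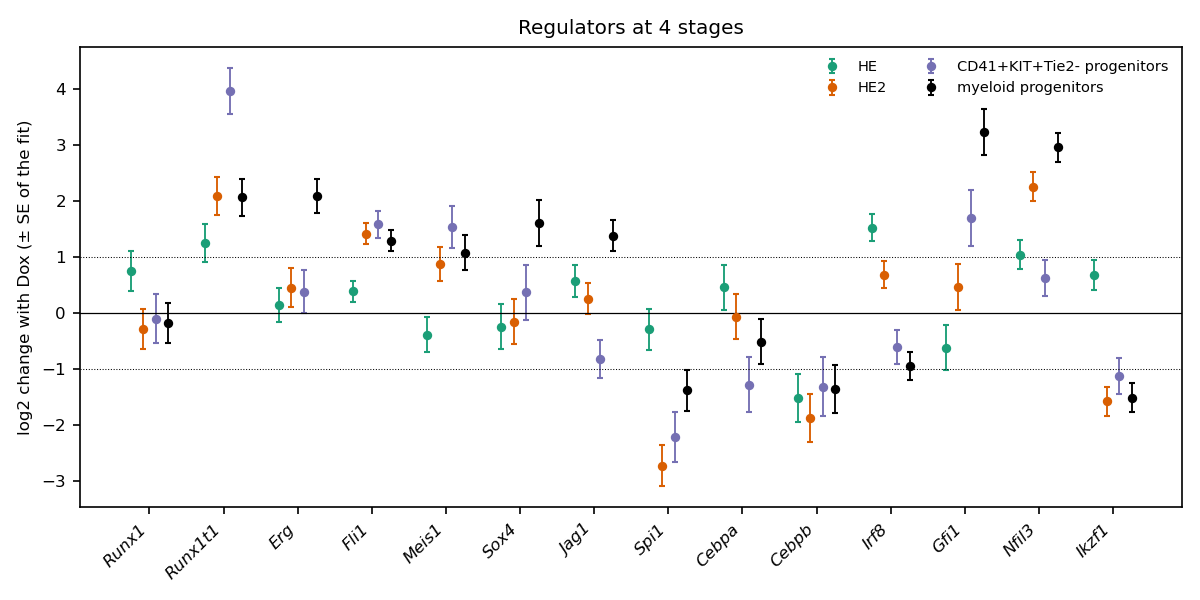
Log2 change with induction ± SE (y axis) of 14 transcription factors and signalling genes in myeloid progenitors and in the 3 earlier stages, with dotted lines at a 2-fold change. Erg exceeds the 2-fold line in myeloid progenitors, at 2.08, and lies at 0.13 in HE and 0.38 in CD41+KIT+Tie2− progenitors. The difference in the response of Erg was called against HE but not against CD41+KIT+Tie2− progenitors.

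Of 15 tested mast cell, basophil and eosinophil genes, 5 rose and none fell, with a median of 0.42. Il1rl1, the interleukin-33 receptor, went from 10.21, 9.39 and 9.44 to 13.92, 12.35 and 12.60 (3.28 ± 0.43). Cpa3, the mast cell carboxypeptidase, went from 7.45, 7.15 and 7.37 to 11.51, 10.22 and 10.05 (3.27 ± 0.33). As for Hdc, induced array 1 was the highest of its group for both genes. Il4 rose by 1.55 and Gata2 as given above. The 10 genes not called ran from Alox5, the 5-lipoxygenase (−1.81, adjusted P = 0.0248), to Cma1 (1.04) and Kit (1.02, adjusted P = 0.03), with the protease genes Mcpt2 (−0.40), Mcpt4 (−0.22) and Tpsb2 (−0.17) between them, and 4 of the 15 (against 22.7% of all tested genes) lay lower without overlap. On the same list Ms4a2, Fcer1a and Mcpt8 were below the expression filter. Siglecf, not on this list, fell.

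Of 26 megakaryocyte and platelet genes, 7 fell and none rose, with a median of −0.45. They were the platelet chemokines Pf4 (−1.84) and Ppbp (−1.72), the von Willebrand factor receptor and collagen receptor genes Gp9 (−1.68), Gp6 (−1.60), Gp1ba (−1.47) and Gp1bb (−1.27), and Vwf (−1.23). Gp6 went from 9.06, 9.39 and 9.12 to 7.56, 7.65 and 7.56 (adjusted P = 1.36e-06). The lineage's surface marker CD41, encoded by Itga2b, had a change of −0.88 ± 0.65 (adjusted P = 0.47), and Alox12 had the highest value, 1.14. The count of falls was 4 without uninduced array 3, and Pf4 was lost in 5 of the 6 fits without 1 array (adjusted P of 0.0194 to 0.034). Of 27 erythroid genes, Tfrc (−1.22) and Hbb-bs (−1.06) fell, with a median of −0.52. Of the 6 fits without 1 array, the call of Tfrc was lost in 3 (adjusted P of 0.024 to 0.0443) and that of Hbb-bs in 4 (adjusted P of 0.0249 to 0.0857). The embryonic globins Hbb-bh1 (−0.03) and Hbb-y (−0.11) and Gata1 (−0.25) were near 0.

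Of 31 monocyte and macrophage genes, 3 rose and 2 fell, with a median of −0.25. The mannose receptor Mrc1, which liver sinusoidal and lymphatic endothelium also express, rose from 5.48, 6.34 and 5.30 to 10.48, 9.27 and 9.41 (4.01 ± 0.42, adjusted P = 3.53e-06). Mrc1 and Cd36 were well above background on 1 of the 3 uninduced arrays. Ly6c1, also expressed by endothelium, rose by 2.68, and the fatty acid receptor Cd36 by 1.29. The chemokine receptors Cx3cr1 (−1.30) and Ccr2 (−1.17) fell, though each call was lost in 4 of the 6 fits without 1 array (adjusted P of 0.0195 to 0.0353, and of 0.0211 to 0.0281). Csf1r (−0.38, adjusted P = 0.55) and Tyrobp (−0.45, adjusted P = 0.5) were not called. Of 17 neutrophil granule genes Ncf1 alone passed, falling from 11.81, 11.60 and 11.38 to 9.32, 9.38 and 9.62 (−2.16 ± 0.25, adjusted P = 8.23e-06). Mpo had a change of −0.85 ± 0.36 (adjusted P = 0.14), and the list median was −0.35. Of the 17 genes 15 had a negative change, and 10 lay lower without overlap, as did 22.7% of all tested genes. The mean level over the list was 8.72 to 8.99 on the uninduced arrays and 8.18 to 8.40 on the induced arrays. Of 15 early lymphoid genes, Ebf1 (1.77) and Ly6d (1.48) rose, with a list median of −0.25. Ebf1 was not called in any of the 6 fits without 1 array (adjusted P of 0.0141 to 0.0633). The call of Ly6d, which was well above background on 1 of the 3 uninduced arrays, was lost in 4 of them (adjusted P of 0.0233 to 0.0527).

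**Figure D5:**
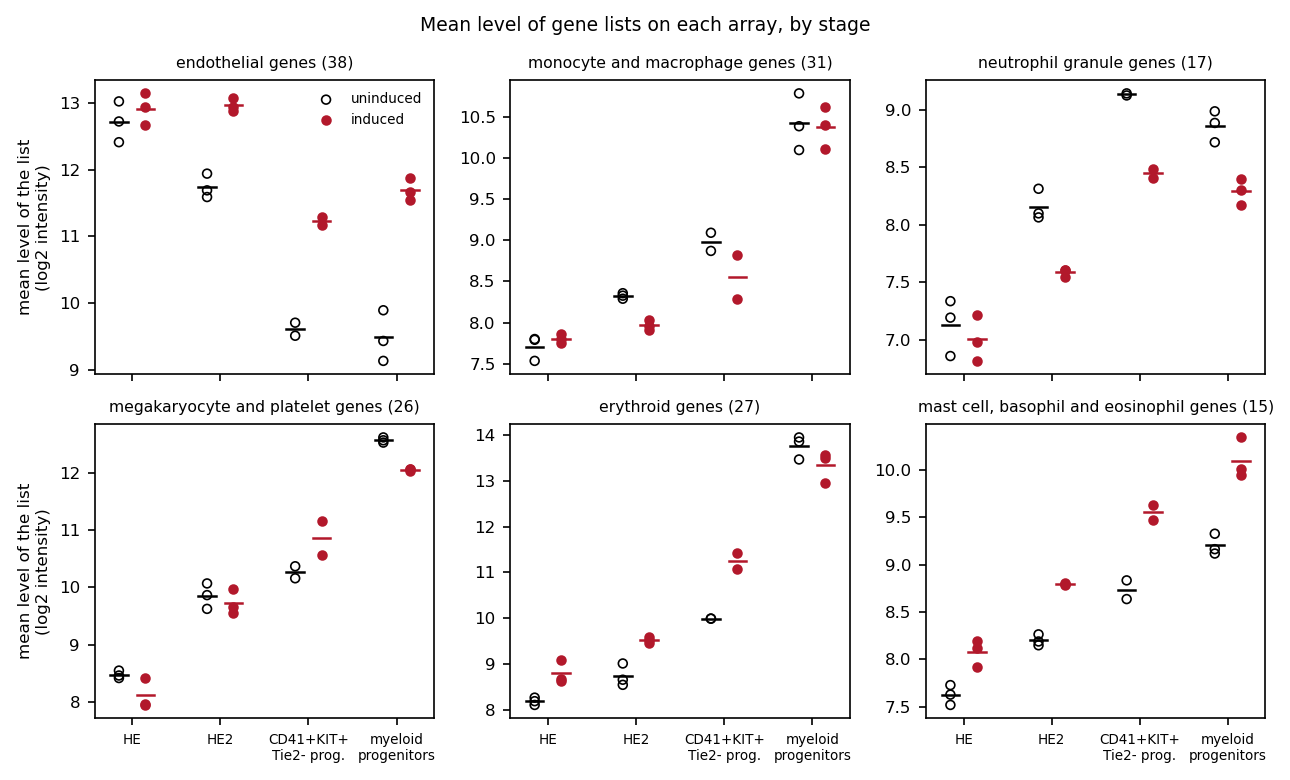
Mean log2 intensity (y axis) over the tested genes of 6 cell type lists on each array, by stage, with open points for uninduced and red points for induced arrays and bars for group means. In myeloid progenitors the endothelial mean lies at 9.14 to 9.90 uninduced and at 11.55 to 11.87 induced, below the 12.41 to 13.02 of uninduced HE, and the megakaryocyte mean lies at 12.53 to 12.62 uninduced and at 12.04 to 12.07 induced.

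Of 21 genes tied to t(8;21) leukaemia, 7 rose and 1 fell, with a median of 0.84. Beside Trh and Sox4 they were Wt1, the Wilms tumour factor (3.04), the basement membrane proteoglycan Hspg2 (2.20), Ncam1, which encodes the CD56 marker (1.99), Cd200 (1.72) and the Notch ligand Jag1 (1.38). Tspan32 fell by 1.13. Wt1 went from 7.42, 7.48 and 7.12 to 11.33, 9.83 and 9.97. Pou4f1, a homeobox gene tied to this leukaemia, had a change of −0.53 (adjusted P = 0.47) and Ccnd2 one of −0.12. The count of rises was 4 without uninduced array 1, where Jag1 was among the losses (adjusted P = 0.0188), and Tspan32 was lost without any 1 of the 6 arrays (adjusted P of 0.0189 to 0.0381).

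Of 46 genes of the MAP kinase cascade, 5 rose (10.9%, against 5.13% of all tested genes) and none fell (against 1.18%). They were Map4k2 (2.48), the p38 kinases Mapk11 (1.96) and Mapk12 (1.73), Map4k4 (1.30) and Map3k9 (1.08), the last well above background on 2 of the 3 uninduced arrays. Of 17 genes that feed back on ERK signalling, Dusp2 (1.94), Spry2 (1.74), Dusp4 (1.35) and Phlda1 (1.15) rose, the last of them not called without uninduced array 1 (adjusted P = 0.0257). Dusp2 went from 14.05, 13.72 and 13.74 to 15.81, 15.75 and 15.76. The AP-1 genes Fos and Fosb did not separate the induced from the uninduced arrays. Fos gave 8.19, 8.81 and 10.28 without Dox and 8.05, 11.46 and 8.47 with it, and Fosb gave 6.49, 6.59 and 9.11 against 6.42, 11.01 and 6.46. Induced array 2 and uninduced array 3 were high for both genes, and without induced array 2 the change of Fos turned from 0.23 to −0.84 and that of Fosb from 0.57 to −0.95. Jund had a change of 0.82 ± 0.30 (adjusted P = 0.0778). Of the 24 AP-1 and immediate early genes Klf6 (1.71) and Klf2 rose (8.33%) and Btg2 (−1.39) fell (4.17%).

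Of 31 cytokine receptors 4 rose (12.9%) and 2 fell (6.45%), and the rises were Il1rl1, the decoy receptor Il1r2 (2.26), Il1r1 (1.95) and the leukaemia inhibitory factor receptor Lifr (1.65). The call of Il1r1, well above background on 1 uninduced array, was lost without uninduced array 1 or induced array 1 (adjusted P of 0.0226 and 0.023). Il21r (−1.21) and Il6ra (−1.11) fell, and their calls were lost in 4 and 5 of the 6 fits without 1 array. The growth factor receptors Csf2ra (−0.01) and Csf3r (−0.04) were near 0. Of 21 chemokines and chemokine receptors, Cxcl1 rose (1.76, well above background on 1 uninduced array) and Cxcr2 (−1.45), Ccl3 (−1.40), Cx3cr1 and Ccr2 fell, with a median of −0.58. Without 1 array the call of Ccl3 was lost in 4 of the 6 fits and that of Cxcr2 in 2. In the Notch list of 24, Notch4 (1.69), Jag1 and the coactivator Maml3 (1.30) rose, with a median of −0.01. None of 18 Toll-like receptor genes and none of 18 antigen presentation genes was called, with medians of 0.15 and 0.12.

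Of 26 interferon-stimulated genes only Rsad2 (2.03) and Ifit1 (1.93) were called, but 24 had a positive change and the median was 0.67. Rsad2 was not called in 5 of the 6 fits without 1 array (adjusted P of 0.0228 to 0.0796). The zinc-binding metallothioneins Mt2 and Mt1 rose by 3.41 ± 0.29 and 2.03 ± 0.33, with Mt2 going from 12.80, 12.88 and 12.94 to 15.79, 16.60 and 16.47. The zinc importer Slc39a4 rose (1.61) and the exporter Slc30a10 fell (−1.19), though not without uninduced array 3 or induced array 1 (adjusted P of 0.0183 and 0.0316). Over the 14 genes of metallothioneins and zinc transport the median was −0.12. Slc30a3, from a level not above background, and Slc30a2, of the same family as Slc30a10 but not on the list, rose.

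Genes of ribosome production and of the cell cycle had small negative changes, nearly all of which did not pass the test. None of 30 ribosome biogenesis genes was called, while all 30 had a negative change, with a median of −0.55 (26 lay lower without overlap between the groups, as did 22.7% of all tested genes). Of 34 cell cycle genes Ccne1 alone was called (−1.02), 31 changes were negative and the median was −0.48. Mki67, the proliferation marker, had a change of −0.49 ± 0.16 (adjusted P = 0.057). Among 26 CDK inhibitors and p53 targets Gadd45g (1.93), Sesn1 (1.46), Cdkn2b (1.38) and Plk2 (1.16) rose, and Btg2 and Gadd45a (−1.06) fell, with a median of 0.15. Cdkn2b was not called without any 1 of the 6 arrays (adjusted P of 0.0177 to 0.0715), and Plk2 was lost in 4 of these 6 fits. Of 17 genes of the BCL2 family the death agonist Bid fell, from 13.50, 13.01 and 13.03 to 11.86, 11.79 and 11.73 (−1.38 ± 0.15, adjusted P = 5.52e-06). Ndrg1 (1.57) was the 1 of 27 glycolysis and hypoxia genes called, and Apoe (2.08) the 1 of 25 cholesterol and lipid genes. Of 17 DNA methylation and demethylation genes Gadd45a was called, and of 14 housekeeping genes Tfrc, with list medians of −0.17 and 0.02. Like Tfrc, Ccne1 and Gadd45a each lost their call without uninduced array 2, uninduced array 3 or induced array 1 (adjusted P of 0.0154 to 0.0251 for Ccne1 and 0.025 to 0.0479 for Gadd45a).

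The response was then set against those of the earlier stages, in which Dox was given from day 1 of blast culture. In myeloid progenitors Dox was instead given for 12 h in expansion medium. Each stage was compared with its own uninduced arrays, and the difference between the responses was tested. Stage cannot be told apart from the start and length of exposure in these differences. The response differed from that of HE for 718 genes (4.72% of those tested), 450 of them with a higher and 268 with a lower change in myeloid progenitors. Against CD41+KIT+Tie2− progenitors, with 2 arrays a side, 228 genes differed (1.5%, adjusted P of up to 0.0655), and against HE2 333 did (2.19%). The uninduced CD41+KIT+Tie2− progenitor arrays lay on slides 1 and 2 and the induced ones on slides 1 and 3. Slide and Dox were therefore not balanced in that stage, and with slide as a block 155 genes differed from it. Nor were slide and Dox balanced in HE and HE2. In each, the uninduced arrays lay on slides 1, 1 and 2 and the induced ones on slides 1, 2 and 2. With slide as a block 758 genes differed from HE. Of all tested genes, 4.7% were upregulated and 2.39% downregulated in HE, 5.17% and 2.05% in HE2, and 3.03% and 0.704% in CD41+KIT+Tie2− progenitors. The genes upregulated in myeloid progenitors included 241 that were upregulated in HE, which is 30.9% of the myeloid set and 33.8% of the HE set. For CD41+KIT+Tie2− progenitors the 259 shared rises were 33.2% of the myeloid set and 56.3% of theirs, and for HE2 the 382 shared rises were 49.0% and 48.6%. Shared falls were fewer, 33 with HE (18.3% and 9.07%), 36 with CD41+KIT+Tie2− progenitors (20% and 33.6%) and 60 with HE2 (33.3% and 19.2%).

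The endothelial rise was shared in part with the later of these stages. Of the 38 endothelial genes 4 rose and 1 fell in HE (median change 0.20), 17 rose in HE2 (median 1.22) and 17 in CD41+KIT+Tie2− progenitors (median 1.38), with no falls in the last 2 stages. The response in myeloid progenitors was higher than in HE for 21 of them and higher than in CD41+KIT+Tie2− progenitors for 3, and lower for none in either comparison. Ptprb changed by 1.36 in HE and by 5.15 in myeloid progenitors (difference 3.80 ± 0.40, adjusted P = 1.66e-05), from an uninduced level of 14.48 in HE and 9.39 in myeloid progenitors. Lyve1 changed by 0.40 in HE and 1.05 in CD41+KIT+Tie2− progenitors, and the response in myeloid progenitors was higher than either (differences 4.65 and 3.99, adjusted P = 1.08e-05 and 0.00061). Erg responded more strongly than in HE (1.95 ± 0.44, adjusted P = 0.00976), as did Gfi1 (3.85 ± 0.58, adjusted P = 0.000425). Irf8 rose in HE by 1.52 ± 0.25, and its change in myeloid progenitors differed from that by −2.48 ± 0.35 (adjusted P = 0.000273). For Hdc the response was 5.31 in HE and 5.43 in myeloid progenitors, a difference of 0.12 ± 0.61 (adjusted P = 0.984). The change of Hic1 differed from those in HE and in CD41+KIT+Tie2− progenitors by −2.68 and −2.09 (adjusted P = 0.000476 and 0.0285), but its uninduced levels there, 6.01 and 6.21 against 8.51 in myeloid progenitors, lay below the filter of 6.5 and left little room for a fall. Jag1 differed in response from CD41+KIT+Tie2− progenitors by 2.21 ± 0.44 (adjusted P = 0.0186).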

How the data were processed

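RNA was labelled with Cy3 and hybridised in 1 colour to Agilent mouse arrays, and the authors deposited scanner output, from which the median signal intensity and background intensity of each spot were taken, and a series table of normalized log2 values. Feature Extraction is version 10.7.1.1 in the submitters' notes and 10.7.3.1 in the file headers. Following the study's methods, intensities were background-corrected (normexp, offset 16) and quantile-normalized over 23 arrays with limma 3.58.1 in R 4.3.3, after 3671 control spots had been left out, which left 59305 spots. Probes were named through RefSeq (26582 of 55681 had a symbol, for 20145 genes), the brightest probe stood for a gene, and genes reaching 6.5 on 1 array were tested (15202). Linear models (lmFit, eBayes) were fitted to 22 arrays in 8 groups, with 14 residual degrees of freedom. The array titled techrep3 of uninduced progenitors stayed out, since the labels do not say which extract it repeats. Genes were called at P of at most 0.001 and 2-fold, and P was adjusted by Benjamini-Hochberg over all tested genes. On simulated arrays with the same 15202 genes, 81% of 100 genes changed by 1.5 and 94% of 100 changed by 2.5 were called, with 6 unchanged genes called. The number of arrays limits the precision.

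Named genes were the 12 largest rises and falls with groups that did not overlap, the progenitor genes named in the study, and up to 4 called genes per list and direction, apart from items not reported here. Of 121 such genes 24 had several probes, and the probes of Runx1 disagreed in sign. The comparison and the gene lists were chosen with earlier results of these data known. Alternatives were another offset, no background correction, 75th percentile scaling, the deposited log2 values, other filters and probe averages. Others were thresholds, sets of arrays, a replicate block, a slide block and omission of each array.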

Additional observations from a re-analysis of the deposited data

Results flagged for a closer look

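The response to Dox differed between myeloid progenitors and HE, by the test of the difference itself, for 450 genes with a higher and 268 genes with a lower change in myeloid progenitors, and 21 of the higher ones were on the endothelial list. Against CD41+KIT+Tie2− progenitors 127 genes had a higher and 101 a lower change, and 3 of the higher ones were endothelial. Of 37 genes examined singly, 17 differed from HE, 9 from CD41+KIT+Tie2− progenitors and 20 from at least 1 of them. Most of these genes were chosen for the size of their change in myeloid progenitors, which favours such a difference, so the counts are a description. Over all tested genes 4.72% differed from HE and 1.5% from CD41+KIT+Tie2− progenitors. As above, stage cannot be told apart from the start and length of exposure to Dox.

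Against HE, the change in myeloid progenitors was higher by 4.646 for Lyve1, 4.161 for Has2, 4.152 for Ramp2, 4.13 for Cck, 3.797 for Ptprb, 3.443 for Pnoc, 2.645 for Gad2 and 1.949 for Erg on the log2 scale. The difference from HE was −2.677 for Hic1, −2.477 for Irf8, −2.443 for Ncf1, −2.25 for Adgrg5, −2.222 for Tmem273, −1.95 for Siglecf, −1.94 for Gzmb, −1.921 for Muc13 and −1.719 for Zbtb16. Uninduced levels in HE were 4.79 for Tmem273, 5.28 for Gzmb, 5.61 for Adgrg5, 5.78 for Siglecf, 6.01 for Hic1 and 6.06 for Ncf1, all below the expression filter of 6.5, so a fall of these 6 genes could hardly be measured there. For Zbtb16 and Irf8 they were 7.09 and 7.11, and Muc13 had a higher level.

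Against CD41+KIT+Tie2− progenitors the change was higher by 3.988 for Lyve1, 3.007 for Ptprr, 2.207 for Jag1, 1.786 for Has2 and 1.376 for Gad2. The difference was −2.542 for Cgn, −2.339 for Gzmb, −2.087 for Hic1 and −1.768 for Tmem273. The same limit applies here to Gzmb, Tmem273 and Hic1, with uninduced levels of 5.54, 6.19 and 6.21, while Cgn had 8.06.

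Probes without a RefSeq symbol also responded. Of 15070 such probes that passed the expression filter, 169 were higher (1.12%) and 69 lower (0.458%) with Dox under the thresholds used for genes.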

How the results depend on the processing

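The count of upregulated genes stayed within 1.5 times of 780 under each alternative run, and was 629 to 768 when 1 array was left out. The count of downregulated genes (180) was 80 at an adjusted P of at most 0.001, 303 with a 2-fold change alone, and 116 to 193 without 1 array, the lowest without induced array 1. Genes whose response differed from HE (718) numbered 193 at an adjusted P of at most 0.001, 1781 with a 2-fold change alone and 581 to 707 without 1 array. Those that differed from CD41+KIT+Tie2− progenitors (228) numbered 138 after 75th percentile scaling, 9 at an adjusted P of at most 0.001, 1530 with a 2-fold change alone and 168 to 243 without 1 array. A stricter threshold gives fewer calls and a looser one more by construction, and the cause of the value under 75th percentile scaling was not tested. That scaling moved the median change of all genes from −0.018 to −0.15 and gave 612 rises and 143 falls. With slide as a block 758 genes differed in response from HE and 155 from CD41+KIT+Tie2− progenitors. The change of Fos was −0.84 (without induced array 2) to 0.868 without 1 array, negative also without uninduced array 1 (−0.22), and −0.0895 with induced arrays 2 and 3 averaged. The change of Fosb was −0.95 (without induced array 2) to 1.42, and that of Runx1 was −0.364 to 0.0366, the latter without induced array 3. None of these 3 genes passed the test. Of 121 named genes 75 kept their side of the thresholds under each of 24 alternatives run. The deviations of same-numbered arrays had correlations of 0.212, −0.130 and −0.008. With the replicate block 802 genes rose and 183 fell, of which 671 and 135 were called without it. In 6 of 23 arrays, among them induced arrays 2 and 3, the values fitted another column of the same group in the deposited series table better than their own, so the replicate numbers are not settled. With these 2 numbers exchanged, which was looked at after seeing the data, the correlations were 0.212, 0.128 and 0.263, and the block gave 809 rises and 218 falls. Whether the arrays are paired is therefore not settled. Signal over background limited the low end, where 67 of the upregulated genes were not well above background on any uninduced array.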

Other observations

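Genes of nerve and hormone-secreting cells were among the rises, a set put together after its values were seen and therefore given with no test of the set. Beside Pnoc, Trh, Cck and Gad2, the neurofilament genes Nefl (3.46 ± 0.45) and Nefm (1.78 ± 0.42), the growth cone gene Gap43 (3.40 ± 0.40), the neurotensin precursor Nts (2.91 ± 0.45), the neuroendocrine zinc finger factor Insm1 (2.74 ± 0.46), urocortin Ucn (2.28), peripherin Prph (2.27) and the prohormone-processing Cpe (2.20) rose. Ucn was well above background on 1 and Prph on 2 of the 3 uninduced arrays. The secretogranin Scg2, not above background without Dox, was at least 3.60-fold higher. Nefl went from 11.01, 12.20 and 12.17 to 15.37, 15.16 and 15.25, and uninduced array 1 was the lowest of its group for it. Neuropeptide Y, encoded by Npy, fell from 10.36, 10.17 and 10.47 to 8.72, 9.13 and 8.99. In HE, HE2 and CD41+KIT+Tie2− progenitors, in that order, the changes were 6.15, 5.73 and 4.21 for Trh, 4.64, 3.03 and 2.08 for Prph, 1.98, 2.72 and 2.96 for Insm1 and 0.17, 0.09 and −0.06 for Scg2. Those of the other rises named here lay between −0.07 (Nefm in HE2) and 4.69 (Pnoc in CD41+KIT+Tie2− progenitors).

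Of 14 gene families, also picked after their values were seen, some had many called members, against 5.13% of all tested genes raised and 1.18% lowered. Of 7 Gimap genes, small GTPases of immune cells that some endothelium also expresses, 6 rose (median 1.95). Of 7 Hoxd genes 4 rose (median 1.46), against 1 of 7 Hoxa, 2 of 8 Hoxb and none of 2 Hoxc genes. Of 23 protocadherins 7 rose, among them the endothelial Pcdh12, and of 37 serpins 9 rose, with medians of 0.77 and −0.02. Among the smaller ones 2 of 3 Ramp and 2 of 4 Cavin genes rose, while 2 of 4 Ifitm genes and 1 of 5 Siglec genes fell. The other families gave few calls, with 2 rises among 18 Sema genes, 2 rises and 2 falls among 38 Gpr genes, and 12 rises and 8 falls among 282 Slc genes. Probes of Gimap, protocadherin and serpin genes may read more than 1 member, which was not tested.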
